A study of Mus musculus with 12 samples.

Results

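The Hox genes were described in 12 single mouse cardiac precursor cells (CPs). The members were every listed symbol that starts with Hoxa, Hoxb, Hoxc or Hoxd followed by a digit, without antisense names, and 18 of the 14063 listed symbols were described. They were 3 genes of the HoxA cluster on chromosome 6, 7 of HoxB on chromosome 11, 2 of HoxC on chromosome 15 and 6 of HoxD on chromosome 2. Hox genes encode homeodomain transcription factors that give cells their position along the body axis. Genes at one end of a cluster, with low paralogue numbers, are switched on first, in the posterior primitive streak and the mesoderm that leaves it, and those with high numbers follow later and more posteriorly. Retinoic acid, Wnt and Fgf signals and Cdx factors set their onset, Polycomb complexes keep them silent, and in the mouse Hoxb1 marks the posterior part of the second heart field.

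The cells came from CD1 strain embryos whose heart-forming anterior region was dissected and dissociated with trypsin, and each was picked with a capillary pipette. There were 4 subpopulations of 3 cells: EHF Nkx2-5+/Tbx5+ and EHF Nkx2-5+ CPs from the early head fold stage, and EB Tbx5+ and EB Nkx2-5+ CPs from the early allantoic bud stage. They were named by PCR on the amplified cDNA of each cell, among cells positive for Cfc1 and negative for Sox17 and Sox2. Since the labels do not tell which embryo a cell is from, a subpopulation is treated as a single sample, nothing was tested, and all differences below are descriptions of these cells. By sequencing, Tbx5 was at 3.69 to 60.3 RPM among EHF Nkx2-5+/Tbx5+ CPs but at 0.0276 to 0.335 RPM among EB Tbx5+ CPs, and Cfc1 was under 1 RPM in EB Tbx5+ replicate 1 and in replicates 1 and 2 of the EB Nkx2-5+ CPs. Sox17 was at most 0.0895 RPM. RPM are the reads of a gene scaled to the aligned reads of its cell, without adjustment for gene length. Aligned reads were 12475588 to 37905007 per cell, so that a listed 0 allows up to 3 reads, or 0.0791 to 0.240 RPM. This limit is for counting error alone, because PCR copies of a molecule are read several times. Genes at 1 RPM or more numbered 2682 to 5650 per cell, fewest in replicate 3 of the EHF Nkx2-5+/Tbx5+ CPs (2682) and replicate 2 of the EHF Nkx2-5+ CPs (3073).

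Few Hox genes were found, and most of their RPM summed over the 12 cells came from genes with low paralogue numbers. Of the 18 members, 7 reached 1 RPM in at least 1 cell, whereas 72.4% of all listed symbols did. Among these 7, Hoxa5, Hoxc8 and Hoxd13 had paralogue numbers above 4. At least 10 RPM was reached by 5 members (54.9% of all symbols), Hoxb1, Hoxb2, Hoxb3, Hoxd1 and Hoxd13. Only 3 members, Hoxb1, Hoxb2 and Hoxd1, had a mean of 10 RPM or more over the 12 cells (35.8% of all symbols). Hoxa7, Hoxb4, Hoxb6, Hoxb7, Hoxd8, Hoxd9 and Hoxd11 were listed at 0 in every cell, 7 of 18 members against 5.70% of all symbols. Of the 216 values of a member in a cell, 165 were 0, 33 lay above 0 and under 1 RPM, 6 lay between 1 and 10 RPM and 12 were at 10 RPM or more.

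**Figure D1:**
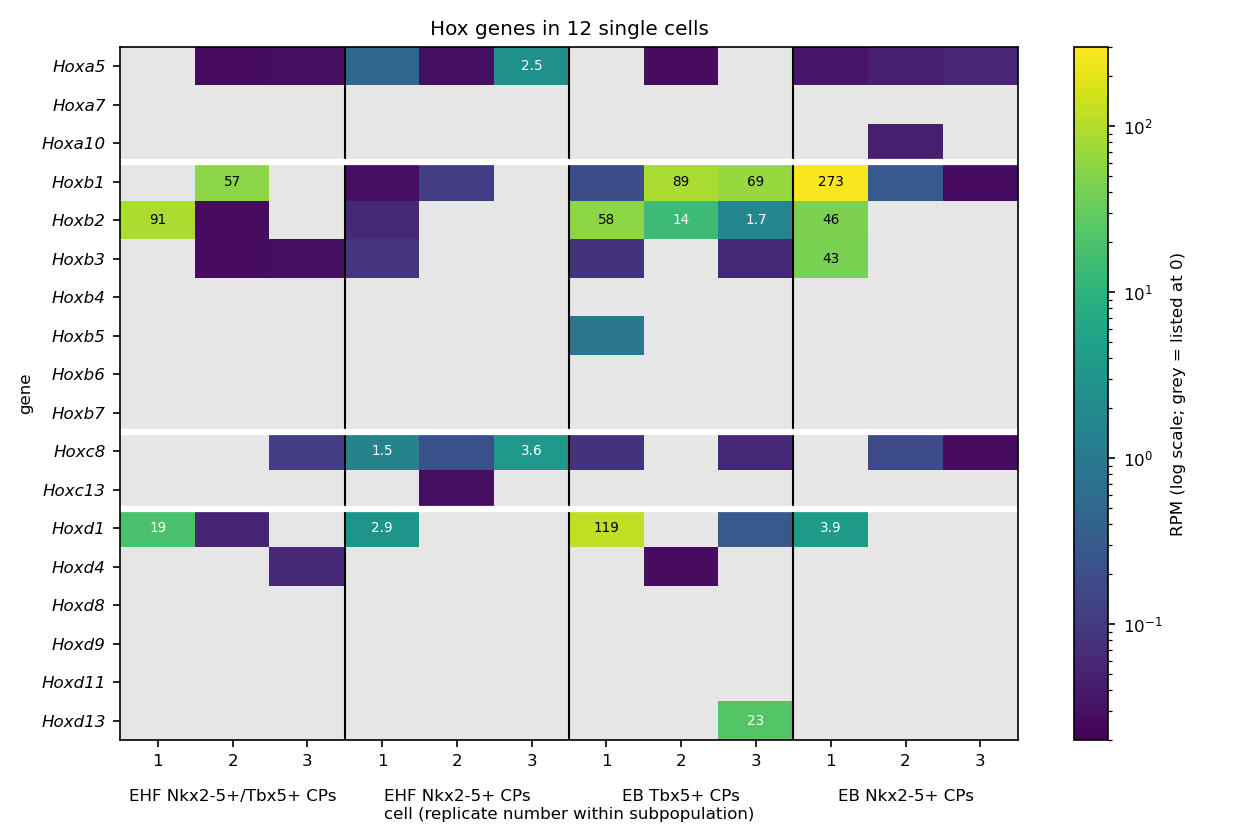
RPM of the 18 Hox genes (rows, by cluster and paralogue number) in the 12 cells (columns, 3 per subpopulation), on a log colour scale with grey for values listed at 0 and numbers printed from 1 RPM. The 12 values of 10 RPM or more lie in the rows of Hoxb1, Hoxb2, Hoxb3, Hoxd1 and Hoxd13.

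By cluster, HoxB held 80.8% of the members' RPM over the 12 cells, HoxD 18.2%, HoxC 0.629% and HoxA 0.357%. RefSeq names 39 Hox genes, so these shares are of the described members and not of whole clusters. By paralogue number, genes of paralogues 1 to 4 held 96.5% of this sum, paralogues 5 to 9 held 1.08% and paralogues 10 to 13 held 2.46%. Hoxb1 and Hoxd1, of paralogue 1, alone held 68.9%, and the single members of paralogues 2 and 3 held 22.9% and 4.67%. A few cells set these shares, with a Hox sum of 366 RPM in EB Nkx2-5+ replicate 1. The EHF Nkx2-5+ CPs had 3.04, 0.113 and 0 RPM of paralogues 1 to 4 (replicates 1, 2 and 3). Paralogues 5 to 9 were at 1.97, 0.254 and 6.09 RPM in the same cells. The shares above are of RPM, which are not adjusted for transcript length. Whether reads rise with exon length in cDNA amplified from oligo(dT) primers was not tested. Per kb of exon annotated by GENCODE, the mean over the 12 cells was 17.5 RPM for Hoxb1, 6.49 for Hoxd1, 5.03 for Hoxb2, 0.842 for Hoxb3 and 0.757 for Hoxd13. All 5 were at or near 0 in some cells, so neighbours in this order overlapped widely.

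The promoters of Hoxb1 and Hoxd1 are shown because both genes differed by over 2-fold between the stages. The runs are the bases before the annotated gene start, from RefSeq on GRCm38.p6, chr11:96365508-96365745 (+) for Hoxb1 and chr2:74762730-74762979 (+) for Hoxd1. Capitals mark the letters of TGATNNAT, the joint site of a Hox protein and a TALE cofactor, through which Hoxb1 is known to act on its own upstream region in the mouse hindbrain.
Hoxb1: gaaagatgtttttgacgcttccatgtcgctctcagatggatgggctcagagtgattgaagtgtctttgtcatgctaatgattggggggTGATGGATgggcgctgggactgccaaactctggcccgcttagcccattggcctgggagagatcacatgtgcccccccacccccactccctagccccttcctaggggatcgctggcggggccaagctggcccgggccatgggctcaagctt
Hoxd1: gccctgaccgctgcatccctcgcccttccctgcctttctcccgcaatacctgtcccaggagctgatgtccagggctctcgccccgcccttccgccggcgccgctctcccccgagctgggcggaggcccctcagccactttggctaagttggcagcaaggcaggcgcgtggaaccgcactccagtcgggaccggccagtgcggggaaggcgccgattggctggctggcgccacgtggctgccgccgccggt
Both strands of the 250 bases before a RefSeq start were searched in 32851 windows. TGATNNAT was in the Hoxb1 window, as TGATGGAT, but not in the Hoxd1 window, and in 7.68% of all windows. Its position, -162, is counted from the end of the Hoxb1 window. That window runs past the annotated gene start, where the printed run of 238 bases stops. Neither window held AGGTCA, a single site of retinoic acid receptors (14.0% of windows), TTTATG, bound by Cdx factors (10.8%), TAATTA, a homeodomain core (4.84%), or TATAAA, the TATA box (12.4%). The Hoxd1 run had a GC content of 71.6% and the Hoxb1 run 59.2%. A window was at hand for 11 of the 18 members, and a match is a description of letters, not a bound site.

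Hoxb1, which sets the identity of a hindbrain segment and marks posterior heart progenitors (chromosome 11 from 96365746 to 96368254, plus strand), had the highest mean of the members, 40.7 RPM. It was at 0, 57.1 and 0 RPM among EHF Nkx2-5+/Tbx5+ CPs (values here and below in the order of replicates 1, 2 and 3) and at 0.0298, 0.113 and 0 RPM among EHF Nkx2-5+ CPs. In the EB Tbx5+ CPs it was at 0.191, 89.2 and 68.7 RPM, and in the EB Nkx2-5+ CPs at 273, 0.309 and 0.0279 RPM. Hoxb1 was thus either above 50 RPM or under 1 RPM in every cell, and each subpopulation with a high cell also had a low one. Its 4 high cells held 2091, 3227, 2258 and 7582 reads, and no other cell held more than 7.

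Hoxb2, the neighbour of Hoxb1 and likewise a gene of the anterior hindbrain, lies on chromosome 11 from 96351632 to 96354020. It was at 90.6, 0.0273 and 0 RPM among EHF Nkx2-5+/Tbx5+ CPs and at 0.0597, 0 and 0 RPM among EHF Nkx2-5+ CPs. It was at 57.8, 14.3 and 1.71 RPM among EB Tbx5+ CPs and at 45.8, 0 and 0 RPM among EB Nkx2-5+ CPs. The EB Tbx5+ CPs were the one subpopulation with Hoxb2 at 1 RPM or more in all 3 cells. In GENCODE the gene lies inside the antisense RNA gene Hoxb3os, with which 26.5% of its 30-base words are shared. No source used here states that reads were counted by strand, and without strand reads in the shared words cannot be told apart.

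Hoxb3, a hindbrain and pharyngeal gene (chromosome 11 from 96307101 to 96347930), was at 42.7 RPM (1185 reads) in EB Nkx2-5+ replicate 1, the cell with the most Hoxb1. In the other 11 cells it was at most 0.0895 RPM. Hoxb3 also overlaps Hoxb3os, and 52.8% of its 30-base words are shared with other genes, so its value is less certain than that of Hoxb1, where 0.560% are shared.

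Hoxd1, in the mouse a gene of pain-sensing neurons (chromosome 2 from 74762980 to 74765142), was highest in EB Tbx5+ replicate 1. It was at 19.05, 0.0547 and 0 RPM among EHF Nkx2-5+/Tbx5+ CPs and at 2.87, 0 and 0 RPM among EHF Nkx2-5+ CPs. The EB Tbx5+ CPs had 119, 0 and 0.304 RPM and the EB Nkx2-5+ CPs 3.93, 0 and 0 RPM. Each subpopulation therefore had a single cell with Hoxd1 at 1 RPM or more, and 82.3% of all Hoxd1 reads came from 1 cell.

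**Figure D2:**
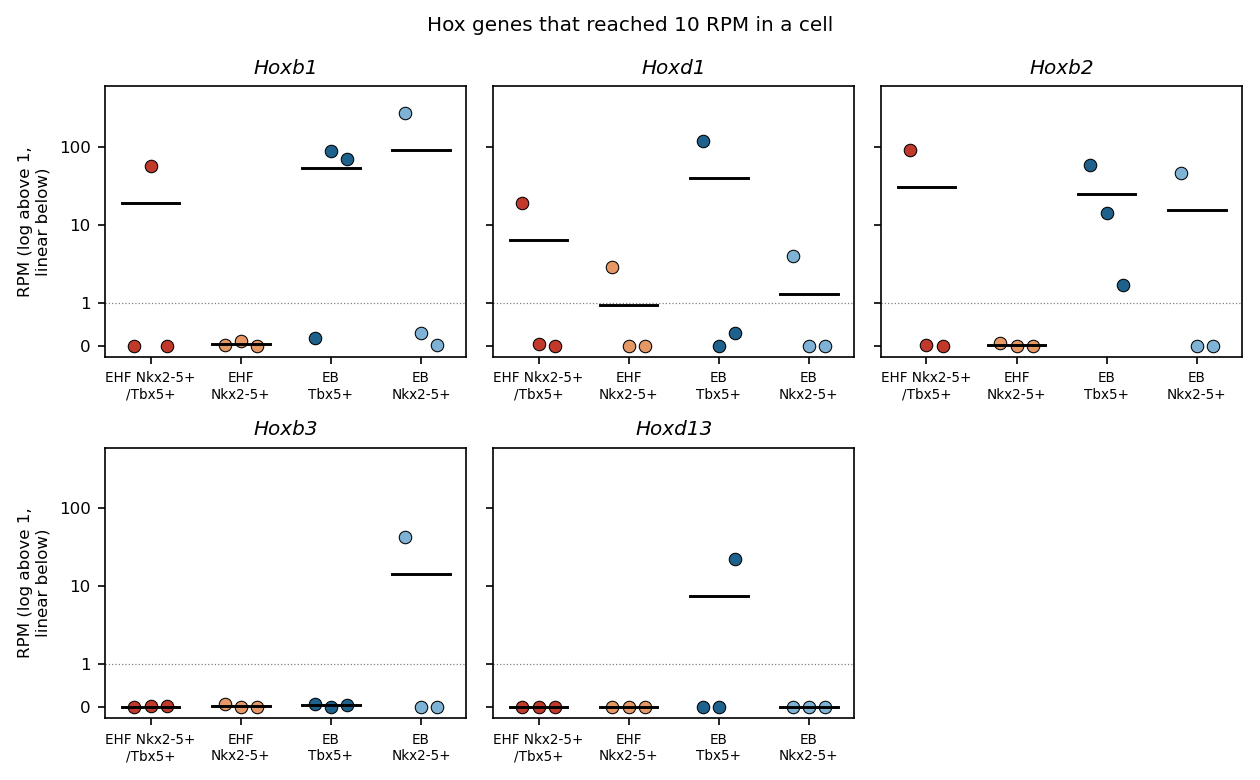
RPM of the 5 Hox genes that reached 10 RPM in a cell, on an axis that is logarithmic above 1 RPM and linear below it, with 1 point per cell, a bar for the mean of 3 cells and a dotted line at 1 RPM. Points of 1 subpopulation lie far apart, as for Hoxb1 in the EB Nkx2-5+ CPs (273, 0.309 and 0.0279 RPM).

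Hoxd13, a gene of digits and external genitalia and the most posterior member of its cluster (chromosome 2 from 74668225 to 74671603), was at 22.6 RPM (741 reads) in EB Tbx5+ replicate 3 and listed at 0 in the other 11 cells. None of its 30-base words was shared with another gene. No other member of paralogues 9 to 13 had more than 1 read in a cell. Among the described members Hoxd13 thus stood alone, without Hoxd9 or Hoxd11 of its own cluster, and unlisted Hox genes could not be described.

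The other members were under 10 RPM in every cell, and those that reached 1 RPM, Hoxc8 and Hoxa5, did so among EHF Nkx2-5+ CPs. Hoxc8, a gene of thoracic vertebrae, had 0, 0 and 0.115 RPM among EHF Nkx2-5+/Tbx5+ CPs, 1.46, 0.226 and 3.61 RPM among EHF Nkx2-5+ CPs and at most 0.176 RPM among EB cells. Hoxa5, a gene of lung and neck vertebrae, had its highest value, 2.48 RPM, in EHF Nkx2-5+ replicate 3 and was above 0 in 9 cells, 1 or 2 reads in 7 of them. The trace members were Hoxb5, with 34 reads (0.926 RPM) in EB Tbx5+ replicate 1 alone, Hoxd4, with 3 reads over 2 cells, and Hoxa10 and Hoxc13, with 1 read each. In GENCODE, Hoxb5 lies wholly within the antisense gene Hoxb5os.

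In sum over the 18 members, every EB Tbx5+ CP had Hox transcripts, and each of the other subpopulations also had a cell with nearly none. The summed level was 110, 57.3 and 0.229 RPM among EHF Nkx2-5+/Tbx5+ CPs and 5.01, 0.395 and 6.09 RPM among EHF Nkx2-5+ CPs. It was 178, 104 and 93.4 RPM among EB Tbx5+ CPs and 366, 0.573 and 0.111 RPM among EB Nkx2-5+ CPs. The lowest EB Tbx5+ CP (93.4 RPM) lay above the highest EHF Nkx2-5+ CP (6.09 RPM), but these subpopulations differ in both stage and marker class. How often sums of other genes part these cells was not counted. The EB Tbx5+ CPs were not apart from the EB Nkx2-5+ CPs, which held both the highest and the lowest cell. The means with the SD over 3 cells were 55.7 ± 54.7, 3.83 ± 3.03, 125 ± 46.1 and 122 ± 211 RPM in this order. Without EB Nkx2-5+ replicate 1 the mean of the EB Nkx2-5+ CPs was 0.342 RPM, and without replicate 1 or 2 that of the EHF Nkx2-5+/Tbx5+ CPs was 28.8 or 54.9 RPM.

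**Figure D3:**
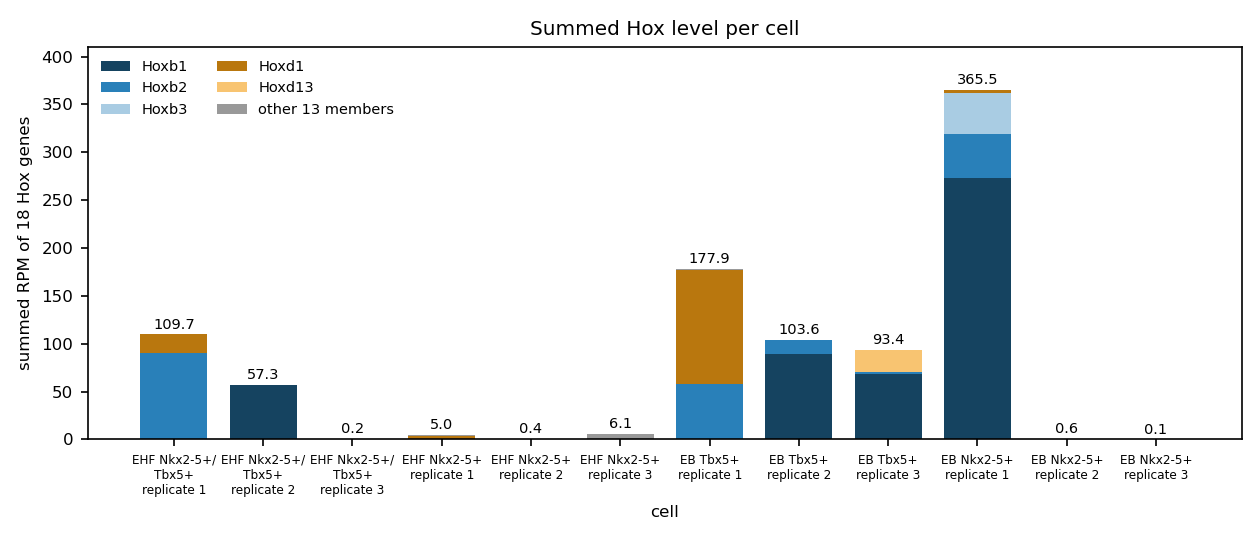
Summed RPM of the 18 Hox genes in each cell as stacked bars, split into the 5 genes that reached 10 RPM and the other 13 members, with the sum printed above each bar. The tall bars differ in makeup, with Hoxd1 and Hoxb2 in EB Tbx5+ replicate 1 and mostly Hoxb1 in EB Nkx2-5+ replicate 1.

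Most cells with a Hox gene held Hoxb1 or Hoxd1. Of the 8 cells with a member at 1 RPM or more, 7 held Hoxb1 or Hoxd1 at that level. Hoxb1 (4 cells) and Hoxd1 (4 cells) were both present in EB Nkx2-5+ replicate 1. The neighbours Hoxb1 and Hoxb2 were both present in 3 cells, of 4 with Hoxb1 and 5 with Hoxb2, and Hoxb2 and Hoxd1 in 3 cells as well. With 12 cells, these counts were too few to tell whether genes were present together or apart. EB Nkx2-5+ replicate 1 held 4 members (Hoxb1, Hoxb2, Hoxb3 and Hoxd1), the most of any cell. The 4 cells with no member at 1 RPM were EHF Nkx2-5+/Tbx5+ replicate 3, EHF Nkx2-5+ replicate 2 and replicates 2 and 3 of the EB Nkx2-5+ CPs. The EHF pair were also the cells with the fewest genes, while both EB cells had more (5120 and 4856 genes at 1 RPM or more), and the part of library complexity in these zeros was not tested. EB Tbx5+ replicate 2, with 3249 genes, held Hoxb1 and Hoxb2. Hoxb1, Hoxb2 and Hoxd1 were at 1 RPM or more in 4, 5 and 4 cells, and the 5031 genes with a mean of 10 RPM or more in a median of 8 cells (quartiles 5 and 10).

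Between stages, EHF cells had less Hoxb1 and Hoxd1 than EB cells. Differences are log2 of group means with 10 RPM added to each, over genes with a mean of 10 RPM or more, and a 2-fold difference is an absolute value of at least 1; the added 10 RPM understates low genes. Hoxb1 averaged 9.55 RPM among EHF cells (2096 reads, 95% Poisson interval 2007 to 2188) and 71.9 RPM among EB cells (13082 reads, 12859 to 13308), a difference of -2.07. Intervals here and below are for counting error of pooled reads alone and do not measure the spread between cells. EHF Nkx2-5+/Tbx5+ replicate 2 held 2091 of the EHF reads, and EB Nkx2-5+ replicate 1 held 7582 of the EB reads. Hoxd1 averaged 3.66 RPM among EHF cells and 20.5 RPM among EB cells (-1.16), and Hoxb2 15.1 RPM among EHF cells and 19.9 RPM among EB cells (-0.25). Of the 3 members compared, 0 were higher by 2-fold in the EHF cells and 2 were lower, where 20.0% of the 5031 genes were higher and 26.7% lower. Their median was -1.16, against -0.19 over all genes. Single cells carry these values. Without EB Nkx2-5+ replicate 1 Hoxb1 had -1.09, without EHF Nkx2-5+/Tbx5+ replicate 2 it had -3.03, without EB Tbx5+ replicate 1 Hoxd1 had 0.33, and without EHF Nkx2-5+/Tbx5+ replicate 1 Hoxb2 had -1.58. Without both cells of fewest genes, Hoxb1 had -1.75 and Hoxd1 -0.98. The stages differ in their second subpopulation as well (Nkx2-5+/Tbx5+ at EHF and Tbx5+ at EB), so stage and that marker class cannot be told apart here.

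Within the marker class present at both stages, the EHF Nkx2-5+ CPs had a Hoxb1 mean of 0.0476 RPM (5 reads) and the EB Nkx2-5+ CPs 91.1 RPM (7590 reads), a difference of -3.33. Hoxb2 had 0.0199 RPM (2 reads) in the EHF Nkx2-5+ CPs and 15.3 RPM (1272 reads) in the EB Nkx2-5+ CPs (-1.33), and Hoxd1 0.955 and 1.31 RPM (-0.05). So 2 of 3 members were lower and 0 higher in the EHF Nkx2-5+ CPs, where 35.9% of all genes were lower and 18.3% higher, with a median of -1.33 for the members and -0.39 for all genes. A single cell, EB Nkx2-5+ replicate 1, carried these differences. Without that cell Hoxb1 had -0.02 and Hoxb2 0.00, and 0 members were lower. Hoxb3, whose mean over all cells was under 10 RPM, had -1.27, and 1185 of its 1195 reads were in that cell.

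Within the EHF stage, the Nkx2-5+/Tbx5+ CPs were higher in Hoxb1 and Hoxb2. Hoxb1 averaged 19.05 RPM among EHF Nkx2-5+/Tbx5+ CPs (2091 reads, 2002 to 2183) and 0.0476 RPM among EHF Nkx2-5+ CPs (5 reads, 1.62 to 11.7), a log2 difference of 1.53. Hoxb2 averaged 30.2 RPM among EHF Nkx2-5+/Tbx5+ CPs and 0.0199 RPM among EHF Nkx2-5+ CPs (2.00), and Hoxd1 6.37 and 0.955 RPM (0.58). Thus 2 of 3 members were higher and 0 lower by 2-fold, where 33.9% of all genes were higher and 20.2% lower. The median was 1.53 for the members and 0.25 for all genes. Each value again rested on a single cell. Without EHF Nkx2-5+/Tbx5+ replicate 2 Hoxb1 had -0.01, and without replicate 1 Hoxb2 had 0.00 and Hoxd1 -0.13.

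Within the EB stage, Hoxd1 was higher in the Tbx5+ CPs, 39.7 RPM (4372 reads) against 1.31 RPM (109 reads) in the Nkx2-5+ CPs, a log2 difference of 2.14. Hoxb1 averaged 52.7 RPM among EB Tbx5+ CPs and 91.1 RPM among EB Nkx2-5+ CPs (-0.69), and Hoxb2 24.6 and 15.3 RPM (0.45). Here 1 of 3 members was higher and 0 lower, where 20.1% of all genes were higher and 26.8% lower. The median was 0.45 for the members and -0.10 for all genes. Without EB Tbx5+ replicate 1 Hoxd1 had -0.16 and no member was higher. Without EB Nkx2-5+ replicate 1 all 3 were higher, with 2.62 for Hoxb1, 1.79 for Hoxb2 and 2.31 for Hoxd1. Without EB Tbx5+ replicate 2, or without EB Nkx2-5+ replicate 2 or 3, Hoxb1 was lower by over 2-fold (-1.19, -1.22 and -1.23). The 4 comparisons share cells and are not independent of each other.

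Of the markers of other cell types, Hand1 went with the Hox sums in the EB cells, but others of the same list did not. Hand1, a factor of lateral and extraembryonic mesoderm, had 1643, 1102 and 1684 RPM among EB Tbx5+ CPs and 1158, 44.8 and 0.111 RPM among EB Nkx2-5+ CPs, so that the 4 EB cells with the highest Hox sums were those with the highest Hand1 levels. Among EHF cells Hand1 was listed at 0 in both EHF Nkx2-5+/Tbx5+ CPs with a Hox gene at 1 RPM or more. Bmp4, a signal of the same tissues, was listed at 0 in EB Nkx2-5+ replicate 1, the cell with the highest Hox sum, and at 73.0 RPM in replicate 2 of these CPs, which had no Hox gene at 1 RPM. Foxf1, a factor of lateral mesoderm, was at 496, 8.05 and 14.0 RPM among EB Tbx5+ CPs and at 73.7, 0.309 and 91.7 RPM among EB Nkx2-5+ CPs, where the last value is from the cell with the lowest Hox sum. Of 5 listed markers of allantois and extraembryonic mesoderm, 4 reached 1 RPM (72.4% of all symbols). The sum of the list ranged from 77.0 to 370 RPM among EHF Nkx2-5+/Tbx5+ and 0 to 215 RPM among EHF Nkx2-5+ CPs. It ranged from 1133 to 3244.5 RPM among EB Tbx5+ and 91.8 to 1231 RPM among EB Nkx2-5+ CPs. For the posterior second heart field, 4 of 6 markers reached 1 RPM (72.4% of all symbols). Sums of this list ranged from 10.2 to 166, 0.0597 to 0.451, 297 to 496 and 49.6 to 291 RPM in the same order. Foxf1 is on both lists, and its 496 RPM made nearly all of the highest EB Tbx5+ sum of the latter. Aldh1a2, at 49.2 RPM in EB Nkx2-5+ replicate 2, made nearly all of the lowest EB Nkx2-5+ sum. Wnt2, a ligand of the posterior second heart field, was at 106 RPM in EHF Nkx2-5+/Tbx5+ replicate 1, 219 RPM in EB Tbx5+ replicate 3 and 217 RPM in EB Nkx2-5+ replicate 1, all cells with a Hox gene, and at most 0.167 RPM elsewhere, while Osr1 and Nr2f2 were under 1 RPM in every cell. Neural markers Nes (25.2 RPM) and Otx2 (11.2 RPM) were found in EB Nkx2-5+ replicate 3, which had no Hox gene at 1 RPM. Pou3f1, the neural marker with the highest mean, was at 82.5 RPM in that cell and at 48.9 RPM in EB Tbx5+ replicate 1, the cell with the most Hoxd1. Endoderm markers Cer1 and Trh were listed at 0 throughout, and Hhex was at 1.92 RPM in EHF Nkx2-5+ replicate 3 alone. The part of any of these cell types in the Hox values was not tested.

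Genes that act with or upstream of Hox genes also varied from cell to cell. The TALE cofactors are homeodomain proteins that bind DNA together with Hox proteins. Of their 8 described genes, 7 were at 1 RPM or more in a cell (72.4% of all symbols). Meis1 was highest in EHF Nkx2-5+/Tbx5+ replicate 2 (247 RPM, with Hoxb1) and Meis3 in EHF Nkx2-5+/Tbx5+ replicate 1 (181 RPM, with Hoxb2 and Hoxd1). Pknox1 was highest in EHF Nkx2-5+ replicate 2 (1719 RPM, with no Hox gene at 1 RPM). Between stages 2 of 3 compared TALE genes were higher in EHF cells, Pknox1 (2.89) and Meis3 (1.79), and 0 were lower, with a median of 1.79, against 20.0% higher, 26.7% lower and a median of -0.19 over all genes. The Pknox1 value rested on EHF Nkx2-5+ replicate 2, since other EHF cells had at most 4.50 RPM. Among EB cells Pknox1 was at 143 RPM in EB Tbx5+ replicate 1 and at 35.3 RPM in EB Nkx2-5+ replicate 1. Meis3 was at 44.3 RPM in EHF Nkx2-5+ replicate 1 and at most 17.6 RPM among EB cells. Neither difference was recomputed without single cells.

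Of 16 listed genes of the retinoic acid pathway, 12 reached 1 RPM in a cell, near the share of all listed symbols (72.4%). Aldh1a2, the enzyme that makes retinoic acid, was at most 0.519 RPM among EHF cells. It reached 400 RPM in EB Tbx5+ replicate 2 and 64.2 RPM in EB Tbx5+ replicate 3, both with Hoxb1. In EB Nkx2-5+ replicate 2, with no Hox gene at 1 RPM, it was at 49.2 RPM. EB Nkx2-5+ replicate 1, with the most Hoxb1, had 0.180 RPM of Aldh1a2. Cyp26a1, which degrades retinoic acid and is itself induced by it, was at 620 RPM in EHF Nkx2-5+ replicate 3, with Hoxa5 and Hoxc8. It was at 60.5 RPM in EB Nkx2-5+ replicate 3, with no Hox gene at 1 RPM, and at most 0.141 RPM elsewhere. The binding protein gene Crabp1 reached 1 RPM in 10 cells (up to 594 RPM in EB Tbx5+ replicate 2) and the receptor gene Rxra in 7 cells (up to 285 RPM in EB Nkx2-5+ replicate 1). Between stages 1 of 7 compared genes was higher in EHF cells (Cyp26a1, 2.50) and 2 were lower (among them Aldh1a2, -3.24), with a median of 0.45. Over so few genes these shares are near those of all genes (20.0% higher and 26.7% lower).

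**Figure D4:**
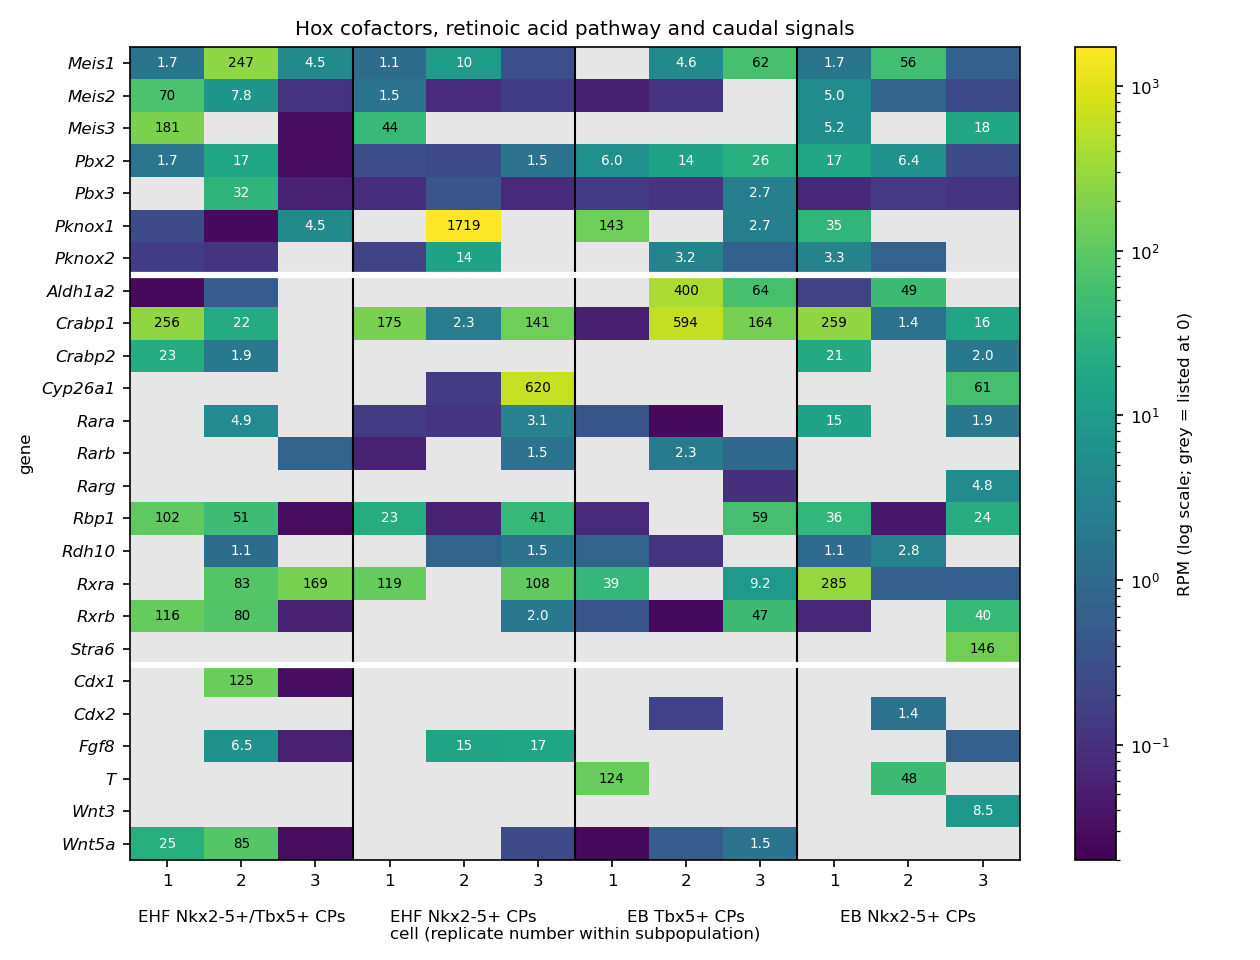
RPM of TALE cofactors (top block), retinoic acid pathway genes (middle block) and caudal and posterior signals (bottom block) in the 12 cells, on a log colour scale, for genes that reached 1 RPM in a cell. Aldh1a2 is at most 0.519 RPM in the 6 EHF cells, and Cdx1 reaches 125 RPM in 1 cell.

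Of 8 listed caudal and posterior signals, 6 reached 1 RPM, near the share of all symbols (72.4%). Cdx1, a direct activator of Hox genes, was at 125 RPM in EHF Nkx2-5+/Tbx5+ replicate 2 and at most 0.0287 RPM elsewhere. That cell was the one EHF cell with Hoxb1 at 1 RPM or more. T, the brachyury factor of the primitive streak, was at 124 RPM in EB Tbx5+ replicate 1, the cell with the most Hoxd1, and at 47.8 RPM in EB Nkx2-5+ replicate 2, which had no Hox gene at 1 RPM. Wnt5a reached 85.2 RPM in EHF Nkx2-5+/Tbx5+ replicate 2, and Fgf8 16.8 RPM in EHF Nkx2-5+ replicate 3. Cdx4 and Wnt3a were listed at 0 in every cell. Between stages Cdx1 was higher in EHF cells (1.63) and T lower (-1.95), the 2 compared genes of the list.

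Evx1, the homeobox gene next to the posterior end of HoxA and also a gene of the primitive streak, was at most 0.0564 RPM among EHF cells. It had 54.5, 0.0276 and 0 RPM among EB Tbx5+ CPs and 0, 239 and 113 RPM among EB Nkx2-5+ CPs, and the log2 difference between stages was -2.96. The EB cells with most Evx1 were those without a Hox gene at 1 RPM. Hotair, the long noncoding RNA of the HoxC cluster, was listed at 0 in all 12 cells. Of 21 listed Polycomb and Trithorax genes, which hold Hox clusters silent or active, 20 reached 1 RPM (72.4% of all symbols). Between stages 2 of 12 compared were higher in EHF cells, among them Kmt2b, a histone methyltransferase of the Trithorax group (3.62, with 790 RPM in EHF Nkx2-5+ replicate 2), and 4 were lower, among them the Polycomb genes Eed (-2.41) and Cbx2 (-1.22), with a median of -0.08. These shares too are near those of all genes (20.0% higher and 26.7% lower). Eed averaged 11.1 RPM among EHF cells and 102 RPM among EB cells, with 263, 11.5 and 2.68 RPM among EB Tbx5+ CPs and 193, 9.21 and 134 RPM among EB Nkx2-5+ CPs. The highest Eed values, 263 and 193 RPM, were in EB Tbx5+ replicate 1 and EB Nkx2-5+ replicate 1. These cells also had the highest Hox sums (178 and 366 RPM). The third highest value, 134 RPM, was in EB Nkx2-5+ replicate 3, the cell with the lowest Hox sum (0.111 RPM). A link between Eed and the Hox sums was not tested. Phc2 and Men1, the list's most abundant members, averaged 269 and 195 RPM among EHF cells and 153 and 145 RPM among EB cells.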

How the data were processed

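Single cells were lysed, their cDNA was amplified by PCR from oligo(dT) primers, libraries were made by Nextera tagmentation and sequenced on an Illumina GA IIx. The authors annotated and normalised aligned reads in Partek Genomic Suite on mm10 and deposited the signal of each gene as RPM; the submitters' notes also name CASAVA 1.7.0, but no source used here names an aligner. The sheet holds 64 copies of 1 table with equal values, of which 1 was used, and 22 names turned into dates were left out. Reads are RPM times the aligned reads of the cell (96.3% of values of 0.5 to 20 reads were whole within 0.02). The comparison code was tested on simulated data. Scripts ran in Python 3.11.15 with pandas 2.3.3, numpy 2.4.6, matplotlib 3.10.9 and scipy 1.17.1. Positions and promoters are from RefSeq GRCm38.p6, exon lengths, overlapping genes and shared 30-base words from GENCODE M21. Members that reached 10 RPM were named with all values, other members with their highest, and of each list up to 4 genes by mean and 2 by stage difference, of marker lists the defining genes. A further Hox symbol and a further cofactor gene are not reported here and enter no count of members or of list genes. Members and lists were chosen with earlier results of these data known. Alternatives were 1 or 100 RPM added, means of log2 values, medians, RPM rescaled without the 100 most abundant genes, other minimums, and leaving out cells. The study's analysis of variance over cells was not used, because cells of unnamed embryos are not replicates.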

Additional observations from a re-analysis of the deposited data

How the results depend on the processing

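Single cells decide most group differences, and the depth of a cell limits a value of 0 only to under 0.240 RPM. Of 205 recomputed counts and sums, 169 moved by at most 1.5 times (counts) or by under 1 SD over cells (sums). The SD is a wide bound where 1 cell holds most of a sum, as in the EB Nkx2-5+ CPs, where the mean was 122 RPM and the median 0.573 RPM. Some detection counts could not move, since leaving out a cell without a Hox gene at 1 RPM cannot change them. Of 183 recomputed log2 differences of Hoxb1, Hoxb2 and Hoxd1, 145 kept their side of the 2-fold limit and moved by under 1 pooled SD. Another 32 did not, and a further 6, at first past 2-fold, changed sign. No paired analysis was possible because the labels do not tell which embryo a cell is from. Members at 1 RPM or more, 3 in the EHF Nkx2-5+/Tbx5+, 3 in the EHF Nkx2-5+, 4 in the EB Tbx5+, 4 in the EB Nkx2-5+, 5 in all EHF, 5 in all EB and 7 in all 12 cells, became 7, 7, 9, 7, 8, 10 and 11 with any value above 0. With a minimum of 3 reads they were 5 and 7 in the EHF Nkx2-5+ and EB Tbx5+ CPs, and with 10 RPM 0 in the EHF Nkx2-5+ CPs and 3 in all EHF cells. Leaving out 1 cell gave 1 to 3, 2 to 3, 3 to 4 and 0 to 4 members in the 4 subpopulations in the same order, 4 to 5 over all EHF cells, 4 to 5 over all EB cells and 6 to 7 over all 12 cells. The summed level then ranged from 28.8 to 83.5, 2.70 to 5.55, 98.5 to 141 and 0.342 to 183 RPM. With 100 RPM added, 0 members were past 2-fold in every comparison. With means of log2 values, 1 was lower between stages, 1 higher in the EHF Nkx2-5+/Tbx5+ than in the EHF Nkx2-5+ CPs and 1 lower in the EHF Nkx2-5+ than in the EB Nkx2-5+ CPs. With medians these were 1, 0 and 0, and 2 were higher in the EB Tbx5+ than in the EB Nkx2-5+ CPs. In that last comparison 1, Hoxb3, was lower with no minimum or a minimum of 1 RPM. Leaving out 1 cell gave 1 to 3 members lower and 0 higher between stages, 1 to 2 higher and 0 lower within EHF, 0 to 3 higher and 0 to 1 lower within EB, and 0 to 2 lower and 0 higher between the Nkx2-5+ CPs. Leaving out both cells with the fewest genes, an alternative chosen after seeing the data, left 1 lower between stages. Signs turned when 1 cell was left out for Hoxd1 and Hoxb2 between stages (-1.53 to 0.33 and -1.58 to 0.17 over the cells left out), for Hoxd1, Hoxb1 and Hoxb2 within EB (-0.16 to 2.62, -1.23 to 2.62 and -0.49 to 1.79) and within EHF (-0.13 to 0.84, -0.0068 to 1.94 and -0.00090 to 2.47), and for Hoxd1 and Hoxb2 between the Nkx2-5+ CPs (-0.18 to 0.13 and -1.72 to 0.0029). They kept for Hoxb1 between stages (-3.03 to -1.09) and between the Nkx2-5+ CPs (-3.87 to -0.02). With medians Hoxb1 within EHF had -0.0043.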
